A study of Mus musculus with 18 samples.

Results

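The contractile apparatus of smooth muscle was followed through 10 genes in lung messenger RNA of mice: Acta2, Actg2, Cnn1, Myh11, Tagln, Des, Lmod1, Smtn, Mylk and Myl9. They were taken by symbol from a table of 13384 genes, all 10 were listed once, and all 10 passed the filter for testing (at least 1 FPKM, fragments per kilobase of transcript, scaled to the library's total, in at least 3 of the 9 libraries), which 11765 genes passed. There were 3 groups of 3 whole-lung libraries. Control mice received phosphate-buffered saline (PBS). The COPD model, for chronic obstructive pulmonary disease, combined cigarette smoke with intraperitoneal cigarette smoke extract, and these mice also received PBS. BMSC-treated mice, labelled VC, were the same model given 4000000 BMSCs with 100 µl PBS through the tail vein, and the title asks how mesenchymal stem cells modulate messenger RNA in the model. The sources used here do not give strain, sex, age, length of exposure or time of injection. Nothing in the labels says that each library came from its own mouse, so the p-values measure the spread between these samples, which may be technical.

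Smooth muscle wraps the conducting airways and the pulmonary arteries and veins, and its tone sets their calibre. Contraction starts when calcium and calmodulin activate myosin light chain kinase (Mylk), which phosphorylates the regulatory light chain (Myl9) and lets the smooth muscle myosin heavy chain (Myh11) pull on filaments of the smooth muscle actins (Acta2, Actg2). Calponin (Cnn1), transgelin (Tagln), smoothelin (Smtn) and leiomodin (Lmod1) bind those actin filaments, and desmin (Des) forms the intermediate filaments that tie the dense bodies together. Many of these genes are known targets of serum response factor and its partner myocardin, which bind a short element called the CArG box.

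RefSeq promoter windows of the build GRCm38.p6 (mm10), 250 bases before to 50 after a gene's start, were matched by symbol to 7 members: Acta2, Cnn1, Des, Lmod1, Smtn, Mylk and Myl9. Each had 1 window. The CArG box was searched on both strands, which is the same search because the element reads alike on each, first as the strict element and then with 1 G or C allowed in its A and T core. The strict element was present in 1.63% of all 32851 windows of this length and the wider form in 9.98%. Of the 7 members, Myl9 held a strict element, and Acta2 and Myl9 held 2 and 1 of the relaxed form. These 4 stretches are shown because they come from the most abundant actin of the group and from the member whose levels followed the others least. Capitals mark the element, and all are written 5′ to 3′ on the gene's strand.
Acta2, upstream element, chr19:34255428-34255477, minus strand: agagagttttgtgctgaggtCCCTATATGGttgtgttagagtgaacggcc
Acta2, downstream element, chr19:34255378-34255427, minus strand: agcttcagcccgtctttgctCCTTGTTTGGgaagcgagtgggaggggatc
Myl9, strict element, chr2:156775283-156775332, plus strand: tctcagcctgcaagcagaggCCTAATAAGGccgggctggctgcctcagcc
Myl9, relaxed element, chr2:156775345-156775394, plus strand: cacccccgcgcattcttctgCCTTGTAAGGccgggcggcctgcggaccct
Counted from the transcript start on which each RefSeq window is set, the elements began 84 and 34 bases before it in Acta2 and 161 and 99 bases before it in Myl9. That start is not the outer end of the gene span given with the values: both Acta2 elements lie inside the Acta2 span, and both Myl9 elements lie before the Myl9 span. A match describes the letters in the window and not a bound site.

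FPKM is scaled to each library, and the libraries differed widely in what filled them. The 13 mitochondrially encoded genes held 46.9% to 89.3% of the FPKM in control libraries, 23.9% to 30.0% in the COPD model and 55.6% to 92.2% after BMSCs, and the club cell product Scgb1a1 held 1.02% to 19.0%, 33.0% to 39.2% and 1.32% to 6.27%. Control 1 and BMSC-treated 1 stood apart with the highest mitochondrial shares and with 1038 and 1193 genes listed at 0, against 107 to 201 in the other 7. Log2 changes are therefore given as deposited, beside the median of all genes tested, and also with FPKM rescaled so that all genes other than Scgb1a1 and the mitochondrial ones had an equal sum in each library. The depth of the libraries is unknown, and in whole lung fewer smooth muscle cells and less RNA per cell cannot be told apart.

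Acta2 was the most abundant member, and Actg2, of middle level, had the second widest range over the 9 libraries, 47.6-fold. Acta2, the alpha actin of vascular and airway smooth muscle (chromosome 19, 34240336 to 34255585, mm10), stood at 39.4, 19.7 and 216 FPKM in control, 415, 147 and 232 in the COPD model and 14.9, 149.5 and 131 after BMSCs. Actg2, the gamma actin typical of visceral smooth muscle (chromosome 6, 83512909 to 83536251), stood at 3.84, 3.38 and 40.0 FPKM in control, 79.8, 30.1 and 38.6 in the COPD model and 1.68, 26.4 and 24.5 after BMSCs. Control 3 lay within the range of the COPD model for both actins, while controls 1 and 2 and BMSC-treated 1 lay far below it. The lowest COPD model library of Actg2 was above all BMSC-treated ones, as for 31% of all genes tested, and for Acta2 these groups overlapped. Actins have near-identical coding sequences, and how the authors divided reads between them is not given, so the split between Acta2, Actg2 and the cardiac actin Actc1 is uncertain.

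Myosin heavy chain had low and high libraries much like those of the actins. Its light chain was also lowest in controls 1 and 2 and BMSC-treated 1, but it was not highest in COPD model 1. Myh11, the smooth muscle myosin heavy chain (chromosome 16, 14194527 to 14292188), had 2.71, 3.32 and 29.3 FPKM in control, 46.1, 22.0 and 28.5 in the COPD model and 1.55, 25.8 and 17.2 after BMSCs. Myl9, the regulatory light chain (chromosome 2, 156775408 to 156781657), had 26.0, 54.9 and 142 FPKM in control, 84.6, 102 and 57.7 in the COPD model and 27.3, 126 and 142 after BMSCs. COPD model 1, which was highest for the other 9 members, was only the fifth highest of the 9 libraries for Myl9, and the 2 highest were BMSC-treated 3 and control 3. Mylk, the kinase that activates Myl9 (chromosome 16, 34745199 to 35002436), had 7.79, 10.1 and 26.4 FPKM in control, 32.9, 17.6 and 29.2 in the COPD model and 4.22, 25.7 and 23.2 after BMSCs, so that all groups overlapped.

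Of the actin-binding members, Cnn1 had the widest spread of all 10. Cnn1, the calponin that restrains the myosin motor on actin (chromosome 9, 22099221 to 22109221), ranged 54.1-fold over the 9 libraries, with 5.54, 1.77 and 27.8 FPKM in control, 95.5, 27.1 and 19.5 in the COPD model and 2.01, 33.7 and 25.7 after BMSCs. Tagln, also named SM22 alpha (chromosome 9, 45929628 to 45936058), had 38.5, 25.7 and 148 FPKM in control, 305, 112 and 168 in the COPD model and 17.9, 122 and 115 after BMSCs. For both genes the groups overlapped in every comparison. Smtn, which marks contractile smooth muscle (chromosome 11, 3517522 to 3539292), had 1.52, 1.97 and 5.37 FPKM in control, 9.36, 6.17 and 8.90 in the COPD model and 0.801, 5.42 and 4.99 after BMSCs. It was the 1 member whose COPD model libraries were all above the control ones, as for 23.7% of all genes tested. Its COPD model libraries were also all above the BMSC-treated ones, as for 31% of all genes. Lmod1, which nucleates actin filaments in smooth muscle (chromosome 1, 135324813 to 135368065), had 1.43, 1.05 and 7.36 FPKM in control, 9.11, 4.63 and 5.59 in the COPD model and 0.691, 3.87 and 2.76 after BMSCs. Des, the intermediate filament protein of all muscle (chromosome 1, 75360292 to 75368579), had 7.22, 16.1 and 53.3 FPKM in control, 141, 49.3 and 40.8 in the COPD model and 6.10, 39.8 and 30.5 after BMSCs. The COPD model libraries of Lmod1 and Des were likewise all above the BMSC-treated ones, beside the same 31% of all genes. Both genes overlapped between COPD model and control.

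**Figure D1:**
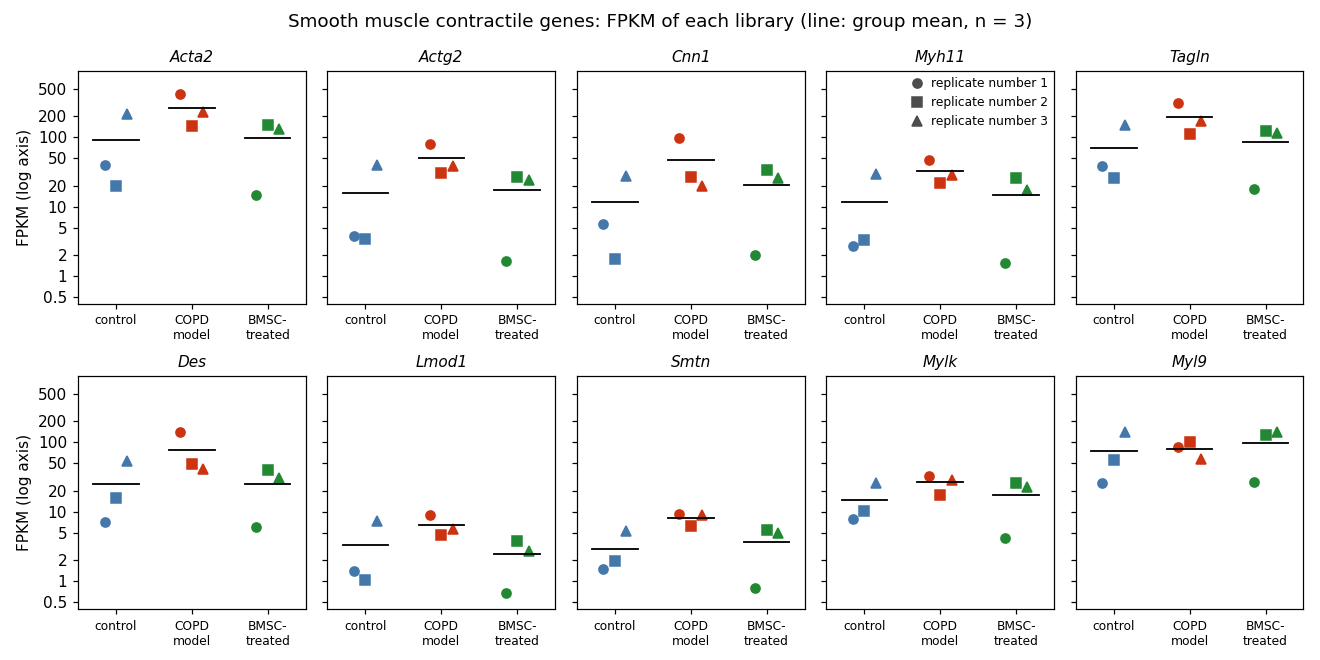
FPKM of each contractile gene (log axis, the same in every panel) in the 3 control, 3 COPD model and 3 BMSC-treated libraries, with the replicate number as the point shape and the group mean as a line. Controls 1 and 2 and BMSC-treated 1 lay low for most genes, control 3 lay near the COPD model, and Myl9 was not highest in COPD model 1.

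Since FPKM is scaled by length, the members can be ordered by level. By their mean over the 9 libraries the order was Acta2 at 152 FPKM, Tagln at 117, Myl9 at 84.7, Des at 42.7, Actg2 at 27.6, Cnn1 at 26.5, Mylk at 19.7, Myh11 at 19.6, Smtn at 4.94 and Lmod1 at 4.06. Only the steps from Des to Actg2 and from Myh11 to Smtn had the same sign in 9 of 9 libraries, with mean log2 ratios of 0.88 ± 0.72 (SD) and 1.65 ± 0.65. Myl9 was above Des, and Smtn above Lmod1, in 8 of 9, with 1.32 ± 0.94 and 0.36 ± 0.44. For the other neighbours in the order the mean log2 ratio was smaller than its SD over libraries, as in Acta2 against Tagln (0.19 ± 0.33) and Tagln against Myl9 (0.24 ± 0.96).

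The first comparison asked what smoke exposure altered. All 10 members had higher group means in the COPD model than in control, from 1.09 times for Myl9 and 1.80 times for Mylk to 3.14 times for Actg2 and 4.05 times for Cnn1, although Myl9 was lower than in control with rescaled FPKM. Mean Acta2 FPKM was 265 ± 137 (SD, n = 3), and 91.9 ± 108 in control, which gave a log2 change of 2.10 on the log2(FPKM + 1) scale with a 95% interval of 0.48 to 3.72. Smtn had 8.14 ± 1.72 FPKM against 2.95 ± 2.10, a log2 change of 1.32 with an interval of 0.03 to 2.61. By limma, with Benjamini-Hochberg adjustment over all genes, 0 of the 10 members reached an adjusted p below 0.05, where 0.0765% of all genes did. The adjusted p was 0.514 for 9 members and 0.70 for Myl9. At an unadjusted p under 0.05, 7 of the 10 were higher, all except Lmod1, Mylk and Myl9, beside 6.36% of all genes. Except for Smtn, limma used for each of these a smaller spread than the gene's own within groups. It was 0.98 against 1.24 log2 for Tagln and 0.99 against 1.64 for Cnn1. These p-values are therefore smaller, and the 95% intervals of these genes narrower, than the genes' own spread would give. Groups did not overlap for 1 of 10, Smtn, where 23.7% of all genes were higher without overlap. Without control 1 and BMSC-treated 1 the counts were again 7 beside 5.95% and 1 beside 23.9%.

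The median log2 change of the members was 1.75, beside 0.66 for all genes tested, of which 94.4% were above 0. Relative to all genes the members therefore ranged from -0.24 for Myl9 and 0.28 for Mylk to 1.59 for Cnn1 and 1.62 for Actg2. With rescaled FPKM the median of all genes was 0.14 and that of the members 1.01. On that scale Acta2 had a log2 change of 1.34 (95% interval -0.34 to 3.03) and Smtn 0.72 (0.01 to 1.43). Actg2 had a rescaled log2 change of 1.59, Cnn1 1.54, Myh11 1.35, Des 1.04, Tagln 0.98, Lmod1 0.49 and Mylk 0.22, each with an interval that included 0. Thus 9 of 10 members were above 0, and Myl9 was at -0.33. Smtn alone then had an unadjusted p under 0.05, at 0.0472, beside 2.76% of all genes, with an adjusted p of 0.754 by limma, and its groups again did not overlap, as for 7.09% of all genes. On the rescaled scale COPD model 1 was the highest of the 9 libraries for 8 members, and control 2 the lowest for 9. Single libraries were left out only with FPKM as deposited. On that scale the members' median lay 0.54 above that of all genes without COPD model 1 and 0.58 above without control 2. It lay 1.09 above with all libraries and 1.56 above without control 3. Without control 3, Actg2 passed, with a log2 change of 3.33 (adjusted p = 0.0372, limma). The share of all genes passing in that fit was not counted, so this call has no background beside it.

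The second comparison asked what BMSC injection altered in the model. It shares the COPD model libraries with the first, so the opposite signs of the 2 comparisons are not independent of each other. Group means after BMSCs were 0.331 to 0.667 times those of the COPD model for 9 members and 1.21 times for Myl9, with Mylk close to its COPD model level (log2 change 0.03) once FPKM was rescaled. Acta2 had 98.4 ± 72.9 FPKM (SD, n = 3) against 265 ± 137, a log2 change of -1.84 with a 95% interval of -3.46 to -0.21. Actg2 had 17.5 ± 13.8 against 49.5 ± 26.6, a log2 change of -1.91 (interval -3.51 to -0.31), and Lmod1 had 2.44 ± 1.61 against 6.45 ± 2.36, a log2 change of -1.20 (interval -2.45 to 0.05). Of the 10 members 0 passed by limma with Benjamini-Hochberg adjustment, where 0.127% of all genes passed, with adjusted p values of 0.375 to 1.0. At an unadjusted p under 0.05, 4 were lower (Acta2, Actg2, Myh11 and Des), beside 10.8% of all genes. For these 4 too, limma used a smaller spread than the gene's own, which also narrowed their 95% intervals. Groups did not overlap for 4 of 10, Actg2, Des, Lmod1 and Smtn, where 31% of all genes were lower without overlap. Without control 1 and BMSC-treated 1, 0 of 10 had an unadjusted p under 0.05, 4 were lower without overlap beside 31.1% of all genes, and Myl9 was higher without overlap beside 3.22%.

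The members' median log2 change was -1.46, beside -0.75 for all genes, and with rescaled FPKM it was -0.59 beside -0.16. Rescaled log2 changes were -1.12 for Actg2, -0.91 for Acta2, -0.78 for both Myh11 and Des, -0.63 for Cnn1, -0.56 for Lmod1, -0.55 for Tagln and -0.47 for Smtn, each with an interval that included 0. Myl9 parted from the other members here. Its log2 change was close to 0 as deposited, with an interval of -1.58 to 1.58, and lay 0.75 above the median of all genes. With rescaled FPKM its levels were 64.6, 79.0 and 41.2 in the COPD model and 92.0, 144 and 113 after BMSCs. All BMSC-treated libraries were then above all COPD model ones, as for 6.25% of all genes. The log2 change was 0.93, with a 95% interval of 0.15 to 1.71. By limma the unadjusted p was 0.0248 and the adjusted p 0.622. On that scale 3.31% of all genes tested were higher at an unadjusted p under 0.05. For the other members the size of the difference rested largely on BMSC-treated 1 and COPD model 1. With FPKM as deposited, and without control 1 and BMSC-treated 1, the log2 change of Acta2 was -0.79. The members' median then lay 0.25 below that of all genes, against 0.70 below with all libraries. Without COPD model 1 it lay 0.21 below.

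The last comparison set BMSC-treated against control lungs. Acta2 had group means of 98.4 and 91.9 FPKM and a log2 change of 0.26 with a 95% interval of -1.36 to 1.89. Log2 changes of the members ran from -0.14 for Lmod1 to 0.81 for Cnn1, with a median of 0.26 beside -0.10 for all genes. With rescaled FPKM they ran from -0.07 for Lmod1 to 0.92 for Cnn1, each with an interval that included 0. Of the 10 members 0 passed by limma, as did 0% of all genes, and 0 of 10 had an unadjusted p under 0.05, beside 0.28% of genes higher and 0.127% lower. Groups overlapped for all 10, where 0.178% of all genes were higher and 0.382% lower without overlap. Without control 1 and BMSC-treated 1 the members' median lay 0.78 above that of all genes, and 1 member, Cnn1 with a log2 change of 1.77, had an unadjusted p under 0.05, beside 2.52% of all genes higher. With all libraries the intervals reached at least 1.10 upward and -0.79 downward for each member, so differences of that size in either direction could not be told from 0. With the replicate number as a block, which pairs these 2 groups, 0 members passed. The block cannot alter a log2 change here, since each group holds each replicate number once.

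**Figure D2:**
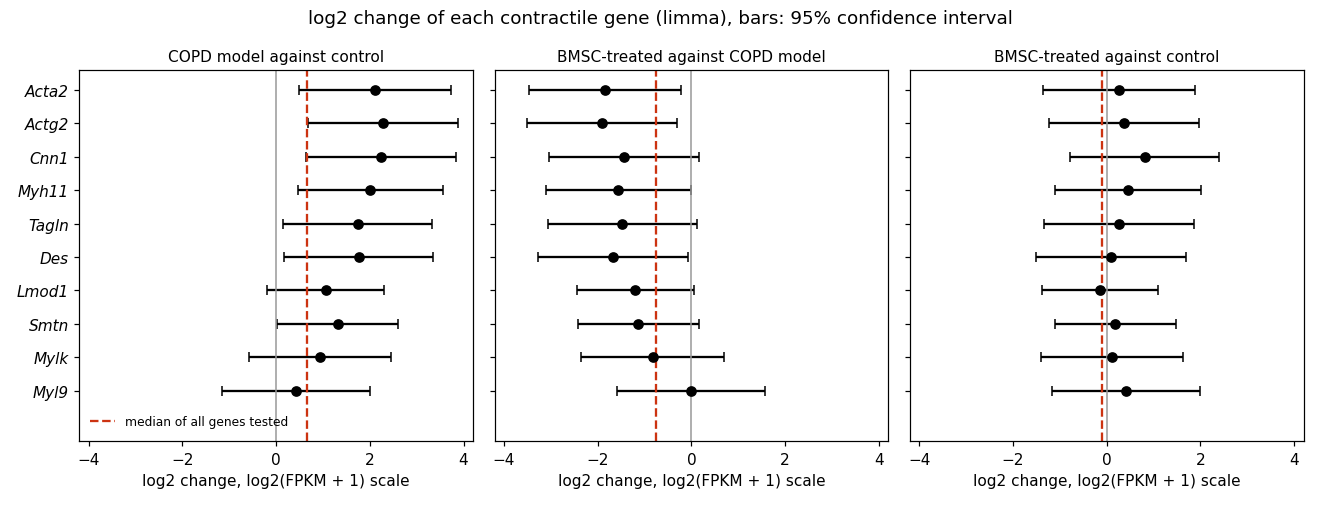
log2 change of each contractile gene on the log2(FPKM + 1) scale in the 3 comparisons (points, with 95% confidence intervals from limma), with the median of the 11765 genes tested as a dashed line. In the first comparison 9 of the 10 members lay above the dashed line, and Myl9 lay below it.

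The scale of a library cancels out when a member is divided by another in the same library, so each was also expressed as a percentage of Acta2 FPKM. Tagln kept closest to Acta2, with 68.2% to 130% over the 9 libraries, a range of 1.91-fold, and Actg2 followed with 9.74% to 20.5%, a range of 2.10-fold. Myh11 (2.5-fold), Lmod1 (2.53-fold) and Cnn1 (2.74-fold) came next. Mylk at 7.92% to 51.4% and Myl9 at 20.4% to 278% parted most from Acta2, with ranges of 6.49-fold and 13.7-fold. Both are also made by cells other than smooth muscle. Against Acta2, Myl9 stood at 65.9%, 278% and 65.8% in control, 20.4%, 69.2% and 24.8% in the COPD model and 184%, 84.1% and 109% after BMSCs, so that every BMSC-treated library was above every COPD model one. The same held for Mylk, with 7.92% to 12.6% in the COPD model and 17.2% to 28.4% after BMSCs, and for Tagln, with 72.4% to 76.5% and 81.9% to 120.2%. Lmod1 was lower against Acta2 in the COPD model (2.20% to 3.16%) than in control (3.40% to 5.34%) without overlap. These ratios were read after the values were seen and were not tested. All share Acta2 as the denominator, so they are not separate observations. The share of all genes whose ratio to Acta2 did not overlap between groups was not counted.

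Visceral against vascular actin was the 1 ratio chosen for a test. The mean log2 of (Actg2 + 1) over (Acta2 + 1) was -2.57 ± 0.43 (SD, n = 3) in control, -2.39 ± 0.15 in the COPD model and -2.46 ± 0.10 after BMSCs. The differences were 0.18 for COPD model minus control (two-sided exact permutation p = 0.7), -0.07 for BMSC-treated minus COPD model (exact p = 0.4) and 0.11 for BMSC-treated minus control (exact p = 0.9), where 3 against 3 libraries cannot give a p below 0.1. No difference in the balance of the actins was detectable by this test with these libraries. The added 1 weighs more at low FPKM, so the scale of a library does not fully cancel in the tested ratio. Without it the mean log2 ratios were -2.78 ± 0.51 in control, -2.42 ± 0.15 in the COPD model and -2.69 ± 0.40 after BMSCs. Their differences were not tested. With 1 added and without control 1, the first and last differences turned to -0.07 and -0.14. Without the added 1, Actg2 stood at 17.1% and 18.5% of Acta2 in controls 2 and 3. It stood at 16.6% to 20.5% in the COPD model and 11.3% to 18.7% after BMSCs.

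**Figure D3:**
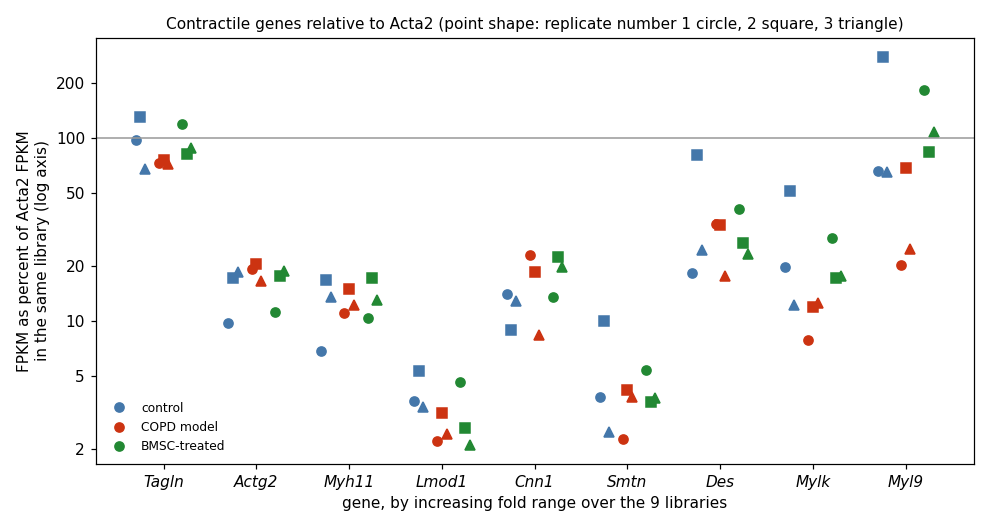
FPKM of each other contractile gene as a percentage of Acta2 FPKM in the same library (log axis), by group (colour) and replicate number (point shape), ordered by the fold range over the 9 libraries. Tagln and Actg2 formed narrow bands, and Myl9 ranged 13.7-fold, with every BMSC-treated library above every COPD model library. The share of all genes with such a ratio was not counted.

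From library to library most members had their low and high values together. The mean of the 10 members, each centred on its own 9-library mean of log2(FPKM + 1), was -1.36, -1.39 and 0.89 in the controls, 1.61, 0.55 and 0.73 in the COPD model and -2.05, 0.62 and 0.40 after BMSCs. With rescaled FPKM these means were -0.39, -1.44 and 0.52 in the controls and 1.12, 0.10 and 0.16 in the COPD model. After BMSCs they were -0.74, 0.69 and -0.02. Rescaling thus drew control 1 and BMSC-treated 1 toward the rest, and it left control 2 as the lowest library. The 10 members summed to 0.0978% of the FPKM outside Scgb1a1 and the mitochondrial genes in control 2 and to 0.626% in COPD model 1, the extremes of the 9 libraries, and the groups overlapped.

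**Figure D4:**
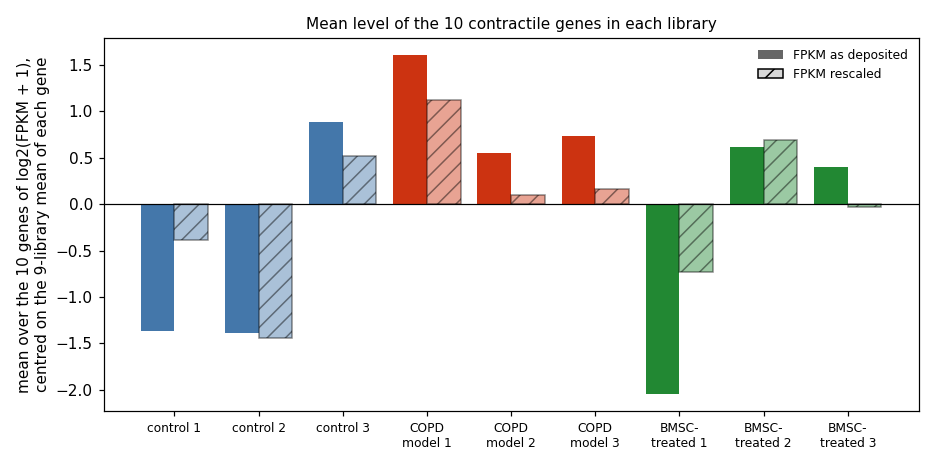
Mean over the 10 contractile genes of log2(FPKM + 1), each gene centred on its 9-library mean, in every library, with FPKM as deposited (plain bars) and rescaled (hatched bars). Rescaling moved BMSC-treated 1 from -2.05 to -0.74, control 2 stayed near -1.4, and COPD model 1 was highest on both scales.

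Genes with the library profile most like that of the members were sought among the 11755 other genes tested, by the mean absolute difference over the 9 libraries between centred rescaled log2 values. The closest was Tpm2, the beta tropomyosin that lies along the actin filament, at a difference of 0.20, against a median of 0.60 for all of these genes. Tpm2 stood at 7.30, 8.17 and 43.2 FPKM in control, 108, 35.1 and 39.2 in the COPD model and 5.82, 29.9 and 26.4 after BMSCs. It was followed by Spcs2 (0.26), Pdlim3 (0.27), Nat14 (0.27), Sntg2 (0.28), Flna (0.28), Casq1 (0.29) and Cyb5r1 (0.29). Pdlim3 is a muscle LIM protein of the actin cytoskeleton, Flna the crosslinker filamin A and Casq1 a calcium store protein of muscle. Nat14, Sntg2 and Casq1 averaged 1.2, 0.926 and 0.77 FPKM, and each was listed at 0 in control 1 and BMSC-treated 1. Of the members themselves Tagln was closest to the mean profile at 0.18, and Myl9 was farthest at 0.59, with 44.0% of the other genes closer to it. Each member is part of that mean, which favours its closeness over that of the other genes.

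In a wider set of smooth muscle genes the median lay close to that of all genes. Of 64 such genes in the table, from 4 groups, 55 passed the filter: 11 regulators, 21 other filament and dense body genes, 13 that control light chain phosphorylation and 10 channels, pumps and receptors. By limma 0 of the 55 passed in any comparison. In the COPD model against control their median log2 change was 0.73, beside 0.66 for all genes and 1.75 for the members. At an unadjusted p under 0.05, 4 of 55 were higher, the tropomyosin Tpm2 (log2 change 1.85), the integrins Itga8 (1.72) and Itga5 (1.66) and the endothelin receptor Ednra (1.28), named after their values were seen, beside 6.36% of all genes. For BMSC-treated against COPD model the median was -0.65 beside -0.75 for all genes, and 4 of 55 were lower at an unadjusted p under 0.05, Mef2d, Tpm2, Itga5 and Rock1, beside 10.8% of all genes. For BMSC-treated against control the median was -0.03 and 0 of 55 had an unadjusted p under 0.05.

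The 4 most abundant genes of each group are given here. Among regulators, the LIM protein Csrp1 had 76.1 ± 10.6 FPKM in control (SD, n = 3), 123 ± 29.8 in the COPD model and 94.6 ± 57.9 after BMSCs, and the transcription factor Foxf1, which marks lung mesenchyme, had 24.8 ± 9.31, 43.7 ± 36.4 and 35.7 ± 26.5. Csrp2 and Klf4, the latter a repressor of contractile genes, had log2 changes of 1.2 and 0.80 in the COPD model against control and of -1.51 and -1.21 after BMSCs against the model. Among filament genes, Myl6, Cnn2 and Tpm1 had log2 changes of 0.81, 0.65 and 0.35 in the first comparison and -0.95, -0.50 and -0.53 in the second, with all 3 found in many cell types. Of genes that set light chain phosphorylation, the kinase Rock1, its activator Rhoa, the phosphatase subunit Ppp1cb and the phosphatase inhibitor Ppp1r14a had log2 changes of 1.15, 0.30, 0.82 and 1.06 in the first comparison. In the second comparison Ppp1r14a, which is enriched in smooth muscle, was at -0.20 and Rock1 at -1.61. Among channels and receptors, the calcium pump Atp2a2, the nitric oxide receptor subunits Gucy1b3 and Gucy1a3 and the chloride channel Ano1 had log2 changes of 0.90, 1.13, 1.19 and 1.07 in the first comparison, and -1.05, -0.35, -0.12 and -0.93 in the second.

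Markers of other lung cells were read beside the members. Pericyte and mural genes, all 12 of which passed the filter, had a median log2 change of 1.27 in the COPD model against control, -0.48 in the second comparison and 0.49 in the last, with 0 of 12 passing. Their summed level was 29.5 to 119 FPKM in control, 108 to 199 in the COPD model and 22.3 to 238 after BMSCs. Cox4i2 and Higd1b, the most abundant, had 22.6 ± 15.4 and 10.5 ± 7.57 FPKM in control (SD, n = 3), 58.2 ± 20.1 and 27.2 ± 12.6 in the COPD model and 57.2 ± 44.5 and 29.5 ± 19.4 after BMSCs. The group means of these 2 genes after BMSCs were thus close to those of the model, although BMSC-treated 1 had only 7.47 and 7.29 FPKM. Of the 12 mural genes, 1 had a log2 change above 0 in the second comparison, beside 5.93% of all genes. Fibroblast genes, with 0 of 13 passing, had a median of 0.90 in the first comparison and -0.81 in the second, and nonmuscle actin and myosin genes, with 0 of 10 passing, 0.50 and -0.66. Summed, fibroblast genes ranged over 247 to 562, 460 to 843 and 159 to 1212 FPKM in control, COPD model and BMSC-treated libraries, and nonmuscle genes over 889 to 1479, 1524 to 2015 and 492 to 1717. Inmt and Dpt for fibroblasts and Actb and Cfl1 for nonmuscle cells led these sums.

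Other muscle was also present. The 10 genes of cardiac muscle, which sheathes mouse pulmonary veins, summed to 25.2, 567 and 142 FPKM in control, 266, 185 and 194 in the COPD model and 32.6, 310 and 350 after BMSCs, and 0 of 10 passed. The atrial light chain Myl7 was at 322 FPKM in control 2, against 5.81 to 164 in the other 8 libraries. In that library Des reached 81.4% of Acta2, against 17.5% to 41.1% elsewhere. Acta2 was low there, at 19.7 FPKM, and Tagln, Lmod1, Smtn, Mylk and Myl9 also had their highest ratios to Acta2 in control 2. Des itself was at 16.1 FPKM there, against 7.22 and 53.3 in controls 1 and 3. Cardiac Actc1, unlike Myl7, was highest in COPD model 1, at 216 FPKM, as were 9 of the 10 members. Of cardiac genes Myl3, Nppa and Sln were listed at 0 in at least 1 library. The 3 listed skeletal muscle genes, led by Tnnt3 and Ckm, summed to 0.225 to 15.5 FPKM, with 0 of 2 tested passing. The part of cardiac or skeletal muscle in the levels of Des and the actins was not tested.

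The summed leukocyte genes were highest in controls 1 and 2, through the neutrophil proteins S100a8 and S100a9. The 10 listed summed to 777 and 790 FPKM in controls 1 and 2, where the members were low, and to 161 in control 3, against 128 to 246 in the COPD model and 158 to 313 after BMSCs. S100a9 gave 428 and 467 FPKM of these sums in controls 1 and 2, and S100a8 gave 331 and 297. The other 8 genes were not highest there: Ptprc, the common leukocyte antigen, had 0.55 and 1.13 FPKM in controls 1 and 2 and 3.17 in control 3, and Csf1r, the macrophage growth factor receptor, had 0.70 and 2.43 against 5.45. Of 9 leukocyte genes tested 0 passed. Endothelial genes, led by Cldn5 and Ramp2, summed to 80.9 to 189, 135 to 385 and 34.6 to 248 FPKM in control, COPD model and BMSC-treated libraries, and 0 of 10 passed. Club cell genes, led by Scgb1a1 and Cyp2f2, had 1 of 10 passing, Scgb1a1, in the first 2 comparisons. Ciliated (led by Dynlrb2 and Tppp3), alveolar type 1 (Hopx and Ager) and alveolar type 2 (Sftpc and Lyz2) genes had medians of 1.41, 1.18 and 0.84 in the first comparison and -1.48, -1.18 and -1.19 in the second, with 0 of 10 passing in each. Mesothelial genes (led by Krt19 and Upk1b, 0 of 6 tested passing) and neuron and Schwann cell genes (Stmn2 and S100b, 0 of 4) had medians of 0.76 and 0.27 in the first comparison, and the 2 listed squamous and basal genes, Krt15 and Krt5, did not reach the filter. How far the makeup of the lung pieces shaped the members' levels was not tested.

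**Figure D5:**
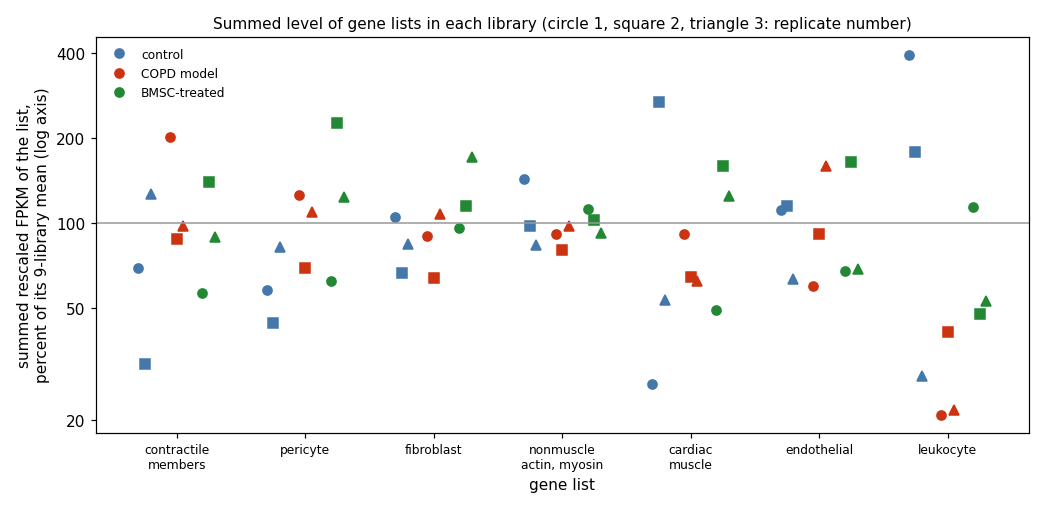
Summed rescaled FPKM of 7 gene lists in each library as a percentage of the list's 9-library mean (log axis), by group (colour) and replicate number (point shape). The contractile members were lowest in control 2 and highest in COPD model 1, cardiac genes were highest in control 2, and the leukocyte sum, mostly S100a8 and S100a9, was highest in controls 1 and 2.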

How the data were processed

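Messenger RNA of mouse lung was measured in 9 libraries, 3 per group, from 1.5 µg of total RNA enriched with oligo dT and made into libraries with a stranded kit, per the labels' protocols. The authors deposited FPKM per gene, per the file headers. The submitters' processing notes name StringTie, Bowtie, cutadapt and FastQC and the build mm10, without role or version, and do not say if reads were assigned by strand. The tsRNA tables were not used here. The members and gene lists were chosen with earlier results of these data known. Values were tested as log2(FPKM + 1) in R 4.3.3 by limma 3.58.1, using a trend of variance on mean, all 9 libraries in 1 fit and Benjamini-Hochberg adjustment over 11765 genes. Library 1, 2 or 3 refers to the number in the labels. Named genes were all members, the 4 most abundant tested genes of each wider list and any called there, the 2 most abundant of each marker list and the 8 most alike. The fit was tested on simulated data. Coordinates and promoters are from RefSeq on GRCm38.p6. Same-numbered control and BMSC-treated libraries deviated together over all genes (correlations 0.63, 0.19 and 0.50). COPD model libraries did not pair with either. The main fit was unpaired, and the replicate number entered only as the block, an alternative that also covered the COPD model libraries. Plots were drawn with matplotlib 3.10.9, exact tests run with scipy 1.17.1, and tables made with pandas 2.3.3 and numpy 2.4.6 in Python 3.11.15.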

Additional observations from a re-analysis of the deposited data

How the results depend on the processing

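Depth is unknown, and 3 libraries per group leave wide intervals. The spread used by limma was drawn toward that of all genes: 1.0 log2 for Acta2, against 1.52 within its own groups. Alternatives were a pseudocount of 0.1, no filter, a filter of 5 FPKM, both rescalings, 2 groups per fit, no trend, the replicate block, and libraries left out. None of these gave a called member, except Actg2 without control 3, where the share of all genes passing was not counted. The replicate block changed no call: 0 members and 0 wider genes passed in each comparison. Each group holds each replicate number once, so the block can alter only the spread and the p-values. The members' median, 0.36 above that of all genes for BMSC-treated against control, could not change with it.

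Directions turned as follows. With equal-sum rescaling, Myl9 had -0.33 in COPD model against control and 0.93 in BMSC-treated against COPD model, and Mylk had 0.033 in the latter. With median-ratio rescaling these were -0.45, 1.07 and 0.16. Without control 1 and BMSC-treated 1 they were -0.16 and 0.75 for Myl9, and Lmod1 had 0.047 in BMSC-treated against control. The Actg2 to Acta2 difference, with 1 FPKM added to each, was then -0.067 in COPD model against control and -0.089 in BMSC-treated against control. Leaving out 1 library gave 0 to 1 members called in the first comparison. The members' median relative to all genes was 0.54 to 1.56, -1.14 to -0.21 and -0.010 to 0.84 in the 3 comparisons, and the Actg2 to Acta2 difference -0.067 to 0.34, -0.16 to -0.0038 and -0.14 to 0.27. Myl9 ranged from -0.16 to 1.05 and from -0.42 to 0.75 in the first 2 comparisons. In BMSC-treated against control the ranges were -0.46 to 1.31 for Acta2, -0.21 to 1.47 for Actg2, -0.21 to 1.49 for Myh11, -0.24 to 1.15 for Tagln, -0.54 to 0.87 for Des, -0.52 to 0.49 for Lmod1, -0.14 to 0.77 for Smtn, -0.31 to 0.87 for Mylk and -0.16 to 1.17 for Myl9. The cause of these turns was not tested. limma's array weights could not be fitted: the estimation stopped before convergence with weights of 0.0177 to 7600 and nearly all weight on control 2 and BMSC-treated 2. Under those weights 10, 4 and 10 members were called, beside 80.6%, 80.5% and 97.8% of all genes, and these calls were not used.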
